A study of Mus musculus with 8 samples.

Results

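The chemokine genes Cxcl9, Cxcl10, Ccl5, Cxcl16, Cxcl1, Cxcl2, Cxcl14 and Pf4 were followed across 8 one-colour expression arrays of mouse bone marrow derived macrophages. The members were found by gene symbol in the array's annotation, which names 8 of the 12393 singly named genes, and these have 10 of the 22626 probe sets. Cxcl14 and Cxcl16 have 2 probe sets each, and the brighter one stands for the gene unless the second is named. All 10 probe sets passed the filter on dim signals, Cxcl1 through 1 array alone and Cxcl9 only through its arrays with IFN-gamma. Cxcl9 was high with IFN-gamma and at or near the floor without it. Cxcl10 was also higher with IFN-gamma, and ran from 3.6 to 63.7 without it. Ccl5 and Cxcl16 rose less from higher levels, and Pf4 fell. In wild-type cells Cxcl16 also fell with calcitriol, and in Vdr-/- cells no member passed the test for calcitriol.

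The study crossed genotype, IFN-gamma and calcitriol (1alpha,25(OH)2D3, the hormonal form of vitamin D), with 1 array for each of the 8 combinations. The Vdr-/- groups were Vdr-/- with IFN-gamma and calcitriol, with IFN-gamma, with calcitriol, and untreated, and the wild-type groups were the same 4. The label of the untreated knockout names the allele Vdr tm1 Rge, a germline mutation carried by every cell. Marrow cells of every group were grown for 7 days with M-CSF at 50 ng/ml, and treated cells were then kept for 24 to 48 h with the agents, at doses that no source used here states. The exact time of each treated group and the time for which untreated cells were kept are not given. Time in culture and treatment thus cannot be told apart. Each group is 1 RNA sample from a number of mice that is not given, so a difference of genotype and a difference between mice or cultures cannot be told apart. The labels also describe peritoneal macrophages elicited with thioglycolate, but the source of each sample is given as bone marrow derived macrophages, and that was followed here. There are no replicates, so every test below takes its spread from how far array pairs or treatments disagree. The limma step draws this spread towards that of probe sets with similar signal. An SE or p below can thus be smaller or larger than the member's own pairs would give.

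Chemokines are small secreted proteins that direct leukocytes along gradients. In the CXC family a residue separates the first pair of conserved cysteines, whereas in CC chemokines such as Ccl5 these cysteines are adjacent. IFN-gamma acts through Jak kinases on genes with GAS elements and raises Irf1, an activator that binds ISRE elements, and NF-kappa B binds kB elements of many chemokine genes. Cxcl9 and Cxcl10 are ligands of Cxcr3 on activated T and NK cells, and Ccl5 is a ligand of Ccr1 and Ccr3. Cxcl16 is a membrane-bound ligand of Cxcr6 that Adam10 sheds, Cxcl1 and Cxcl2 draw neutrophils through Cxcr2, and Pf4 is the platelet chemokine also known as Cxcl4. Calcitriol acts through the nuclear receptor encoded by Vdr.

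On chromosome 5 lie 5 of the members, in the gene order Pf4, Cxcl1, Cxcl2, Cxcl9 and Cxcl10. The neighbours Cxcl1 and Cxcl2 have no coding gene between them, and Cxcl9 and Cxcl10 have only Art3. Cxcl16 and Ccl5 are on chromosome 11 and Cxcl14 is on chromosome 13. The 250 bases before the annotated start were taken from RefSeq (GRCm38.p6) for 6 of the 8 members, and Cxcl16 and Ccl5 are named only. They are shown for both neighbouring pairs, since one pair rose with IFN-gamma and the other was dim. Cxcl9 is at chr5:92328080-92328329 (minus strand), Cxcl10 at chr5:92348890-92349139 (minus strand), Cxcl1 at chr5:90890995-90891244 (plus strand) and Cxcl2 at chr5:90903649-90903898 (plus strand). Each is printed 5′ to 3′ towards the gene, with motif matches in capitals.
Cxcl9: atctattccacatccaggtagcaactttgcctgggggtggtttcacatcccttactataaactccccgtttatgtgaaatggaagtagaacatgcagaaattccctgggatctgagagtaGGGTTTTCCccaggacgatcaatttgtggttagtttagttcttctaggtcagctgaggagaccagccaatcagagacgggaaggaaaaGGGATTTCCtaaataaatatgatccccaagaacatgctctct
Cxcl10: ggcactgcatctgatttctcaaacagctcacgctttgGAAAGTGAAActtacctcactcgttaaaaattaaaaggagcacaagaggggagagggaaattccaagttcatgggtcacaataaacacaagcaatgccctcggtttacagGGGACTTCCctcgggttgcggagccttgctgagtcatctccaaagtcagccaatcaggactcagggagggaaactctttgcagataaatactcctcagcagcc
Cxcl1: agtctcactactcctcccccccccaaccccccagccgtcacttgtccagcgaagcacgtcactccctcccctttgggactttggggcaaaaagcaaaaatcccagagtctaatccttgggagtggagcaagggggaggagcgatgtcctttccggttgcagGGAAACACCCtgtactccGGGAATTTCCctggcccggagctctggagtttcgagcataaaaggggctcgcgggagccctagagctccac
Cxcl2: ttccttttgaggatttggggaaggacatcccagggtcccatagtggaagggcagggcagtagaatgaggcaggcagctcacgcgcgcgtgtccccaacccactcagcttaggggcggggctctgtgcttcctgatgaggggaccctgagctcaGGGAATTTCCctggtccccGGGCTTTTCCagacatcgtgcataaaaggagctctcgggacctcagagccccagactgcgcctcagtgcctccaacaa

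The motifs were searched on both strands as exact letters. The GAS motif TTCNNNGAA was in 7.02% of 32851 RefSeq windows of the same length, the ISRE core (GAAA, any 2 bases, GAAA) in 2.98%, the kB motif of 9 letters GGGNNTTCC in 4.98% and the kB motif of 10 letters (GGG, any 2 bases, TTTCC) in 1.41%. Cxcl9 held 2 kB matches of 9 letters, which began 130 and 42 bases before the start. Cxcl10 held an ISRE core match that began 213 bases before its start and a kB match of 9 letters that began 103 bases before it. Both matches of Cxcl1 were kB motifs of 10 letters, at 89 bases before the start on the opposite strand and at 71 bases on the gene's strand. Cxcl2 held the same kind at 97 and 78 bases. Thus 4 of the 6 searched members held a kB match of either kind, against 5.99% of all windows. These 4 form the 2 neighbouring pairs, and Cxcl1 and Cxcl2 share a matched run of letters, so their windows need not be independent. Cxcl14 had a GAS match at 191 bases and an ISRE core match at 172 bases, and no motif was found in the Pf4 window. A match in these windows is a run of letters and was not tied to binding.

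**Figure D1:**
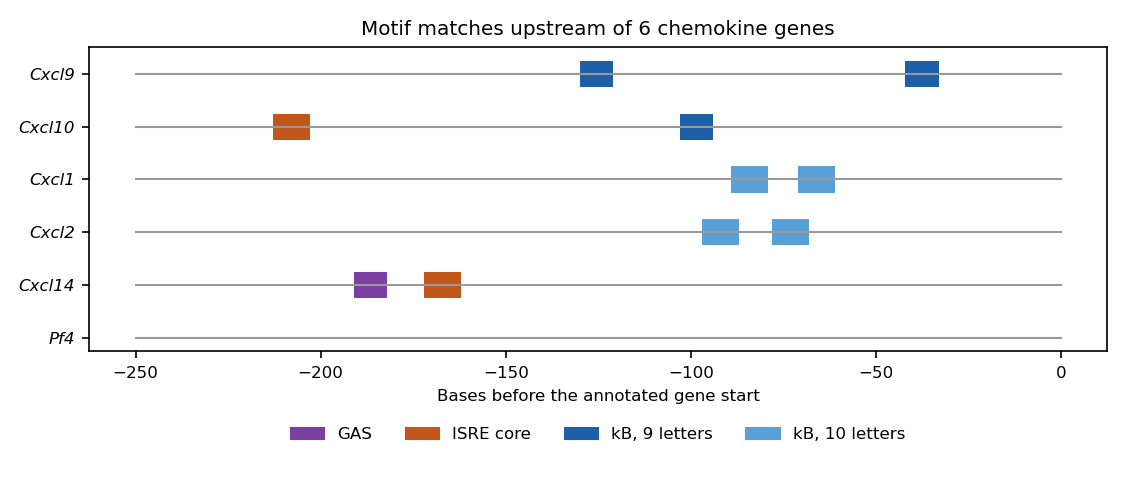
Matches of 4 motifs in the 250 bases before the annotated start of 6 chemokine genes; the x axis is bases before the start and each block spans the matched bases. Cxcl1 and Cxcl2 each hold a close pair of 10-letter kB matches, Cxcl10 and Cxcl14 an ISRE core match, and Pf4 none.

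Signals are the deposited linear array intensities, and the median signal per array lay between 53.4 and 68.2. The floor, below which a signal has no order, was 15.5, and 15.5% of the tested values were at it. The targeted gene has 2 probe sets, and which part of Vdr they read is not given here. The first gave 25.0, 45.6, 2.6 and 90.3 on the Vdr-/- arrays (IFN-gamma with calcitriol, IFN-gamma, calcitriol, untreated), against 227, 84.4, 51.5 and 6.7 on the wild-type arrays in the same order. The second gave 23.6, 2.5, 9.8 and 63.2 on the Vdr-/- arrays, against 386, 82.9, 118 and 5.3 on the wild-type arrays. Vdr was thus higher in wild type in the 3 treated pairs, and in the untreated pair it was higher on the array labelled Vdr-/-, so the labels of the untreated arrays go against their Vdr signal. Results that use these arrays were also computed with both labels exchanged. The ratio of the 3′ to the 5′ Gapdh control, a measure of RNA truncation, was 7.67 for wild type with calcitriol and 4.82 for the array labelled Vdr-/- untreated, against 0.853 to 3.06 on the other 6. All 8 macrophage markers were above the median signal on all arrays.

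Cxcl9 was the member with the largest response to IFN-gamma. Its signal was 4423 and 4311 on the Vdr-/- arrays with IFN-gamma (with calcitriol and without) and 3527 and 5633 on the wild-type arrays with IFN-gamma. Without IFN-gamma it was 9.1 and 3.6 on the Vdr-/- arrays, again with calcitriol first, and 5.9 and 25.4 on the wild-type arrays. All 4 arrays with IFN-gamma were high and 3 of the 4 without it were at the floor, so the groups were far apart. In the wild-type pair without calcitriol, where both arrays were above the floor, IFN-gamma gave a 222-fold higher signal, and in the other 3 pairs it was at least 228-fold, 278-fold and 285-fold higher. The mean change was 7.97 on the log2 scale (SE 0.271, 4 pairs, limma adjusted p = 4.12e-16), a value that depends on the floor and was 6.78 with a higher floor and 8.91 with a lower one.

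Cxcl10, the second Cxcr3 ligand, gave 1279 and 1171 on the Vdr-/- arrays with IFN-gamma and 268 and 1209 on the wild-type arrays with IFN-gamma, with calcitriol first in each pair. Without IFN-gamma it gave 3.6 and 26.9 on the Vdr-/- arrays and 63.7 and 27.4 on the wild-type arrays. The other 3 IFN-gamma arrays were close to each other, and wild type with both agents was the low one, yet still above every array without IFN-gamma. The rise was 4.84 on the log2 scale (SE 0.479, 4 pairs, limma adjusted p = 1.72e-07), and it ran from 2.08 in wild type with calcitriol to at least 6.37 in Vdr-/- with calcitriol. Without the Vdr-/- pair lacking calcitriol the rise was 4.64 and no longer passed (limma adjusted p = 0.102).

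Ccl5, the CC chemokine of the set, had a signal far above the floor on every array. It gave 3952 and 3963 on the Vdr-/- arrays with IFN-gamma and 2535 and 3613 on the wild-type arrays with IFN-gamma. Without IFN-gamma it gave 2459 on the Vdr-/- calcitriol array, 235 on the array labelled Vdr-/- untreated, 457 on the wild-type array with calcitriol alone and 559 on the untreated wild-type array. The 4 arrays with IFN-gamma lay above the other 4, with the Vdr-/- calcitriol array just below them. The rise was 2.48 on the log2 scale (SE 0.323, 4 pairs, limma adjusted p = 1.34e-05), or 5.58-fold. It was 0.68 in the Vdr-/- pair with calcitriol and 4.08 in the Vdr-/- pair without it. Leaving out any pair but the Vdr-/- pair with calcitriol ended the call, with limma adjusted p = 0.169 without the other Vdr-/- pair, 0.227 without the wild-type pair with calcitriol and 0.138 without the wild-type pair lacking it. Without the 2 arrays of highest Gapdh ratio and with genotype and calcitriol as additive terms in place of pairs, the rise was 1.56 (limma adjusted p = 0.411), and the additive fit of all arrays kept the call (limma adjusted p = 0.000628).

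Cxcl16, the Cxcr6 ligand, was bright on every array and rose least of the 4. With IFN-gamma it gave 3816 and 3635 on the Vdr-/- arrays and 1035 and 3893 on the wild-type arrays, with calcitriol first. Without IFN-gamma it gave 2352 and 1367.5 on the Vdr-/- arrays and 359 and 2075 on the wild-type arrays. These values overlapped, since wild type with IFN-gamma and calcitriol was below 3 arrays without IFN-gamma, but within each of the 4 pairs IFN-gamma was higher. The rise was 1.14 on the log2 scale (SE 0.217, 4 pairs, limma adjusted p = 0.00176), 2.20-fold, with pairs from 0.70 to 1.53. The second probe set rose by 0.84 (SE 0.211, limma adjusted p = 0.0227). The call needed 3 of the 4 pairs, as limma adjusted p was 0.21 without the Vdr-/- pair lacking calcitriol, 0.185 without the wild-type pair with it and 0.0943 without the wild-type pair lacking it. In an additive fit of all arrays the rise was no longer called (limma adjusted p = 0.183), and in that fit without the 2 arrays of highest Gapdh ratio it was 0.31 (limma adjusted p = 0.836).

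Pf4 was the one member that fell with IFN-gamma. It gave 152 and 109 on the Vdr-/- arrays with IFN-gamma and 111 and 85.7 on the wild-type arrays with IFN-gamma. On the arrays without IFN-gamma it gave 475 and 359 for Vdr-/- and 228 and 208 for wild type, with calcitriol first throughout. No array with IFN-gamma reached the lowest array without it. The change was -1.42 on the log2 scale (SE 0.319, 4 pairs, limma adjusted p = 0.0086), 2.68-fold lower, and the pairs ran from -1.73 to -1.04. Leaving out any 1 pair ended the call, with limma adjusted p from 0.0917 to 0.261. Of the 10 megakaryocyte and platelet markers 7 had a probe set, and none was above the median signal on all arrays. Their summed signal was 206 to 330 with IFN-gamma and 230 to 413 without it, none passed the test, and the platelet chemokine Ppbp changed by -0.30 (limma adjusted p = 0.905). Summed macrophage markers were 35508 to 51927 with IFN-gamma and 53715 to 59143 without it, and summed stromal markers were 214 to 347 with IFN-gamma and 430 to 790 without it. Csf1r and Lyz2 made up most of the macrophage sum, and neither passed (limma adjusted p = 0.756 and 0.659). The only macrophage marker called, Fcgr1, rose by 1.96 (limma adjusted p = 3.17e-05), and the only stromal one called, Col3a1, changed by -2.02 (limma adjusted p = 0.0308). The part of these cells in the change of Pf4 was not tested. In bulk RNA, fewer cells of a type and less RNA per cell cannot be told apart.

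**Figure D2:**
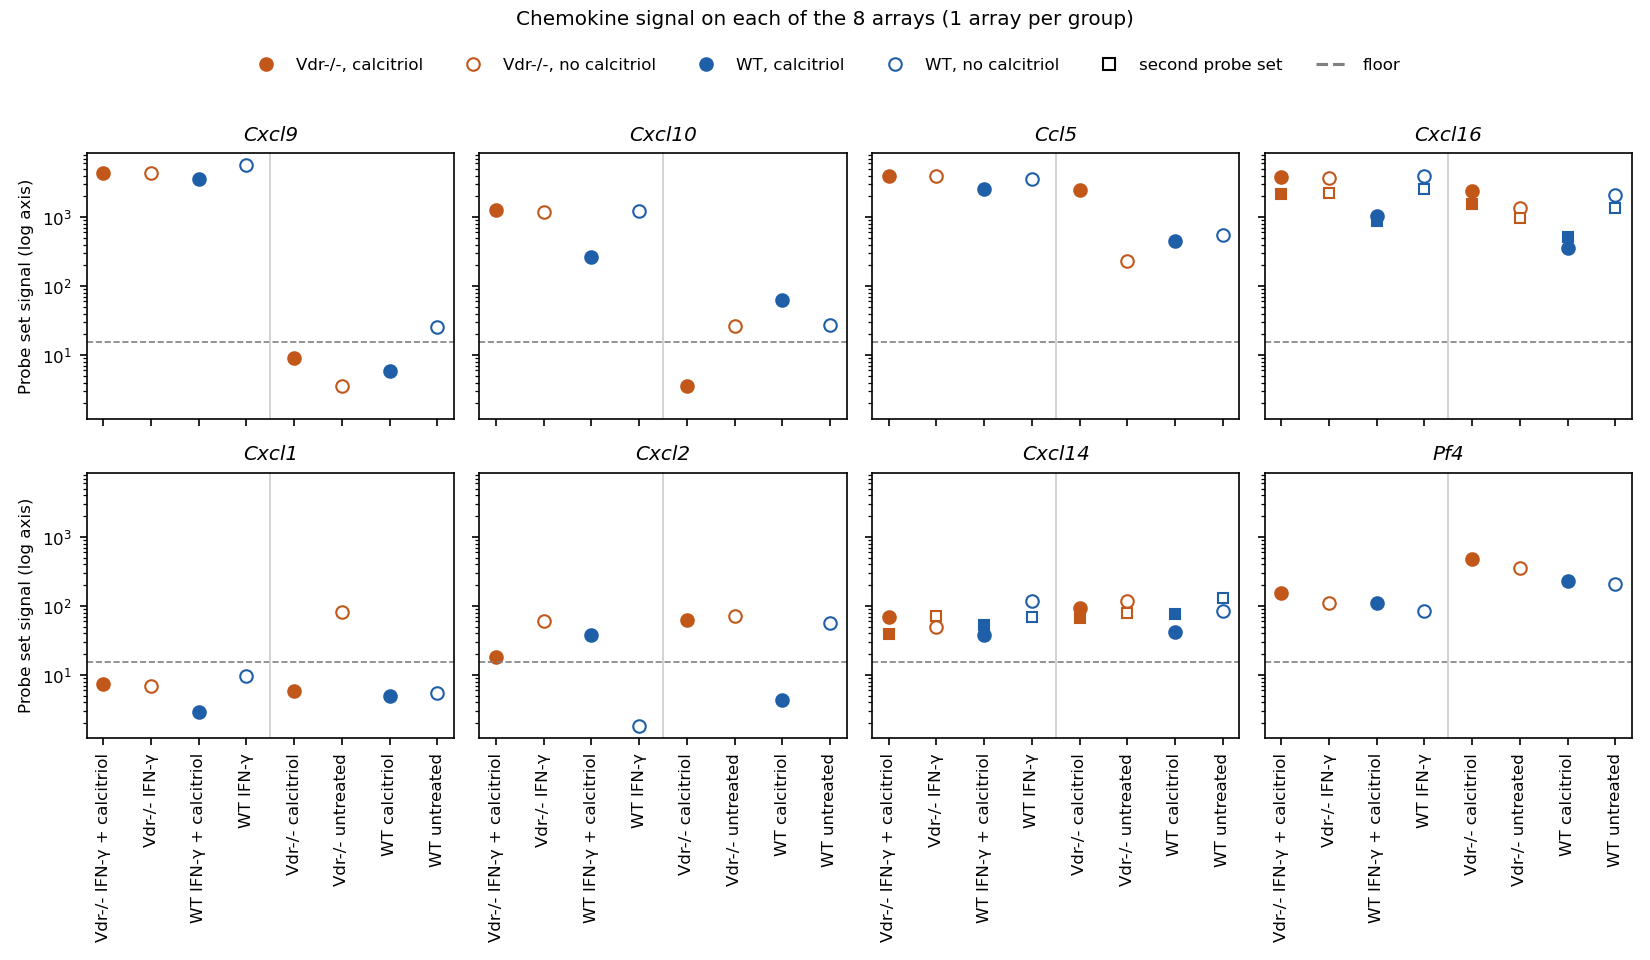
Signal of each chemokine probe set on each of the 8 arrays, on a log axis; circles are the brighter probe set, squares the second, filled symbols calcitriol, and the dashed line the floor of 15.5. Cxcl9, Cxcl10 and Ccl5 sit higher on every array with IFN-gamma (left of the grey line), Pf4 sits lower there, and Cxcl1 clears the floor on 1 array.

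The neutrophil chemokines did not pass the test for IFN-gamma. Cxcl1 was at the floor on 7 of the 8 arrays, and its one signal above it was 82.4 on the array labelled Vdr-/- untreated. That array is also one of those with a high Gapdh ratio, and neutrophil marker signals summed to 650 there, against 457 to 1130 with IFN-gamma and 642 to 762 over the arrays without it. Csf3r gave 265 of that sum. S100a8 (210), Mpo (88.3) and Elane (41.8) were each higher there than on any other array, whereas Csf3r, S100a9, Ngp, Camp and Ltf were not. The part of such cells in the Cxcl1 signal was not tested. Cxcl2 gave 18.4 and 60.1 on the Vdr-/- arrays with IFN-gamma and 37.3 and 1.8 on the wild-type arrays with IFN-gamma, with calcitriol first. Without IFN-gamma it gave 61.6 and 70.4 on the Vdr-/- arrays and 4.3 and 56.0 on the wild-type arrays. The 2 arrays of Cxcl2 at the floor were both wild type, 1 with IFN-gamma and 1 without it. Cxcl2 was higher in Vdr-/- in 3 of 4 pairs, and the genotype difference was not called (limma adjusted p = 0.999). With IFN-gamma Cxcl2 changed by -0.64 on the log2 scale (SE 0.681, 4 pairs, limma adjusted p = 0.783). Cxcl1 changed by -0.60 (limma adjusted p = 0.786), a value set by its 1 array above the floor.

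Cxcl14, a chemokine of epithelia and other tissues, was dim. Its brighter probe set ran from 38.4 to 118 with IFN-gamma and from 42.2 to 119 without it, and the second from 38.7 to 71.8 with IFN-gamma and from 67.7 to 131 without it. The brighter one changed by -0.35 on the log2 scale (limma adjusted p = 0.851) and the second by -0.60 (limma adjusted p = 0.713). The second was lower with IFN-gamma in 4 of 4 pairs and the brighter one in 3 of 4.

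In total, 4 of the 8 members rose with IFN-gamma, against 2.15% of the 18058 probe sets tested, and 1 of 8 fell, against 1.27%. In 3 members, Cxcl9, Cxcl10 and Ccl5, all 4 arrays with IFN-gamma lay above all 4 without it, which held for 3.11% of probe sets, and in Pf4 they lay below, which held for 3.69%. The median change was 0.40 over the members and -0.08 over all probe sets, on the log2 scale.

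**Figure D3:**
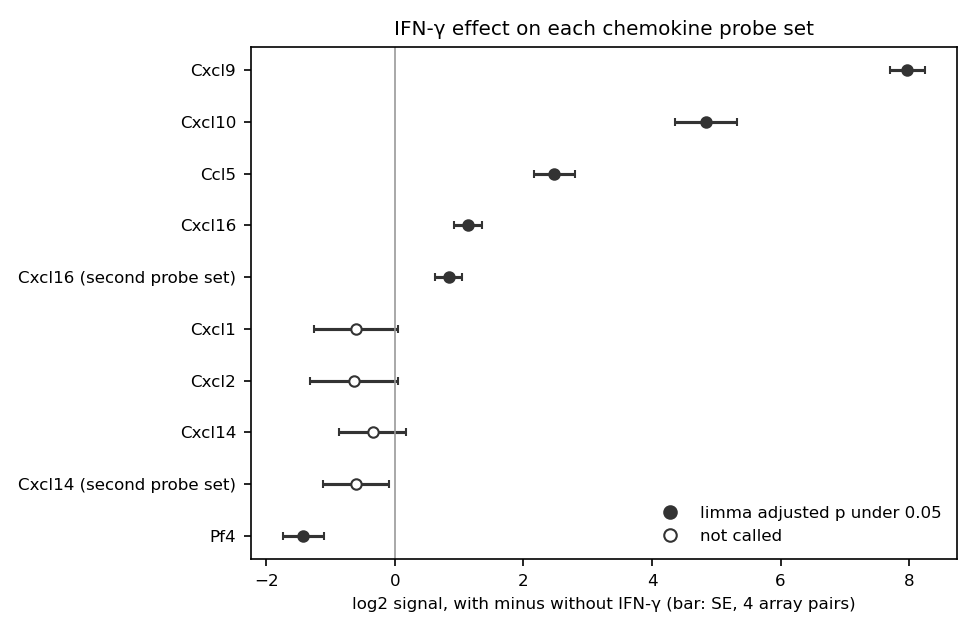
Change with IFN-gamma of each chemokine probe set over 4 array pairs, on the log2 scale. Bars are the limma SE, whose spread is drawn towards that of probe sets with similar signal. Filled points have a limma adjusted p under 0.05. Cxcl9 stands at 7.97, Cxcl10 at 4.84, Ccl5 at 2.48 and Cxcl16 at 1.14, and Pf4 is at -1.42.

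Genes around the chemokines were summarised with the same fit. Of 5 tested genes among the other CXC and CX3C chemokines none passed for IFN-gamma. The lowest limma adjusted p was 0.408, for the Cxcr4 ligand Cxcl12 at -1.32, and Cxcl11, another Cxcr3 ligand, changed by -0.35 (limma adjusted p = 0.876). Of 7 tested receptors 1 fell. This was Cxcr4, the receptor of Cxcl12, at -1.56 on the log2 scale (SE 0.278, limma adjusted p = 0.000816), and Cxcr3 itself changed by -0.34 (limma adjusted p = 0.8). Among 5 tested proteases and sheddases the macrophage elastase Mmp12 fell by 5.72 (SE 0.274, limma adjusted p = 2.91e-13), and Adam10, which sheds Cxcl16, changed by 0.04 (limma adjusted p = 0.978). Of 11 tested genes of the IFN-gamma pathway 5 rose. They were the transcription factors Irf1 (3.69 on the log2 scale, limma adjusted p = 1.85e-11), Irf8 (limma adjusted p = 4.68e-05) and Stat2 (2.59, limma adjusted p = 0.000198), and the signal inhibitors Socs1 (3.73, limma adjusted p = 4.68e-06) and Socs3 (2.76, limma adjusted p = 0.00109). None of 13 tested NF-kappa B pathway genes passed, and the lowest limma adjusted p among them was 0.0696, for the cytokine Tnf at 1.43. None of these 5 lists had a call in any other comparison.

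Calcitriol lowered 1 of the 8 members in wild-type cells, Cxcl16, against 0.576% of probe sets called in either direction. In wild type, Cxcl16 gave 1035 with IFN-gamma and calcitriol, against 3893 with IFN-gamma, and 359 with calcitriol, against 2075 untreated. Both calcitriol arrays were lower, by 3.76-fold and 5.78-fold. The mean change was -2.22 on the log2 scale (SE 0.324, 2 pairs, limma adjusted p = 0.00243), and the second probe set changed by -1.46 (SE 0.316, limma adjusted p = 0.0297). In Vdr-/- cells Cxcl16 gave 3816 with IFN-gamma and calcitriol, against 3635 with IFN-gamma, and 2352 with calcitriol, against 1367.5 on the array labelled Vdr-/- untreated. On this probe set neither calcitriol array was lower, and the mean change was 0.43 (SE 0.324, limma adjusted p = 0.925).

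The difference between the genotypes was tested directly. For Cxcl16 the calcitriol change in Vdr-/- minus that in wild type was 2.65 on the log2 scale (SE 0.458, limma adjusted p = 0.00302), and for its second probe set 1.76 (SE 0.447, limma adjusted p = 0.0447). Cxcl16 was the 1 member of 8 called, against 1.5% of all probe sets. Exchanging the labels of the 2 untreated arrays gave a difference of 2.05, which did not pass (limma adjusted p = 0.112), and a wild-type change of -1.92, which did (limma adjusted p = 0.0135). With both probe sets averaged the wild-type change was -1.84 (limma adjusted p = 0.0511) and the difference 2.21 (limma adjusted p = 0.033).

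Several array measures went with Cxcl16 on some of the arrays. The wild-type calcitriol array, its lowest, had the highest Gapdh ratio, 7.67. The array labelled Vdr-/- untreated gave 1367.5 at a ratio of 4.82, and the Vdr-/- array with IFN-gamma gave 3635 at a ratio of 3.06. In the pair with IFN-gamma, where Cxcl16 was 3.76-fold lower with calcitriol, the ratios were 1.65 with calcitriol and 1.04 without it. In an additive fit without the 2 arrays of highest ratio, which has 1 residual degree of freedom, the wild-type change was -1.86 and was not called (limma adjusted p = 0.599). With calcitriol in wild type, 2 of the 8 macrophage markers also fell. They were the Fc receptor gene Fcgr1, at -2.36 (limma adjusted p = 0.00439), and the endotoxin co-receptor gene Cd14, at -2.16 (limma adjusted p = 0.00636). For the difference of calcitriol effects, 4 of the 8 were called in the direction of Cxcl16, with values of 3.79 for Fcgr1, 3.63 for Itgam, 2.73 for Cd14 and 2.70 for Cd68 (limma adjusted p from 0.000646 to 0.00558). The rest of the list was not called, with 1.06 for Adgre1, 0.08 for Mertk, -0.10 for Csf1r and -0.17 for Lyz2, so the markers did not move as a group. Cd68 was also called in Vdr-/- cells, at 1.66 (limma adjusted p = 0.0416). The summed dendritic cell markers were 1514 on the wild-type array with IFN-gamma and calcitriol and 1401 on the wild-type calcitriol array, against 228 to 844 on the other 6. Itgax, the gene of CD11c, gave 1279 and 1243 of those sums. The part of these measures in the Cxcl16 result was not tested.

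**Figure D4:**
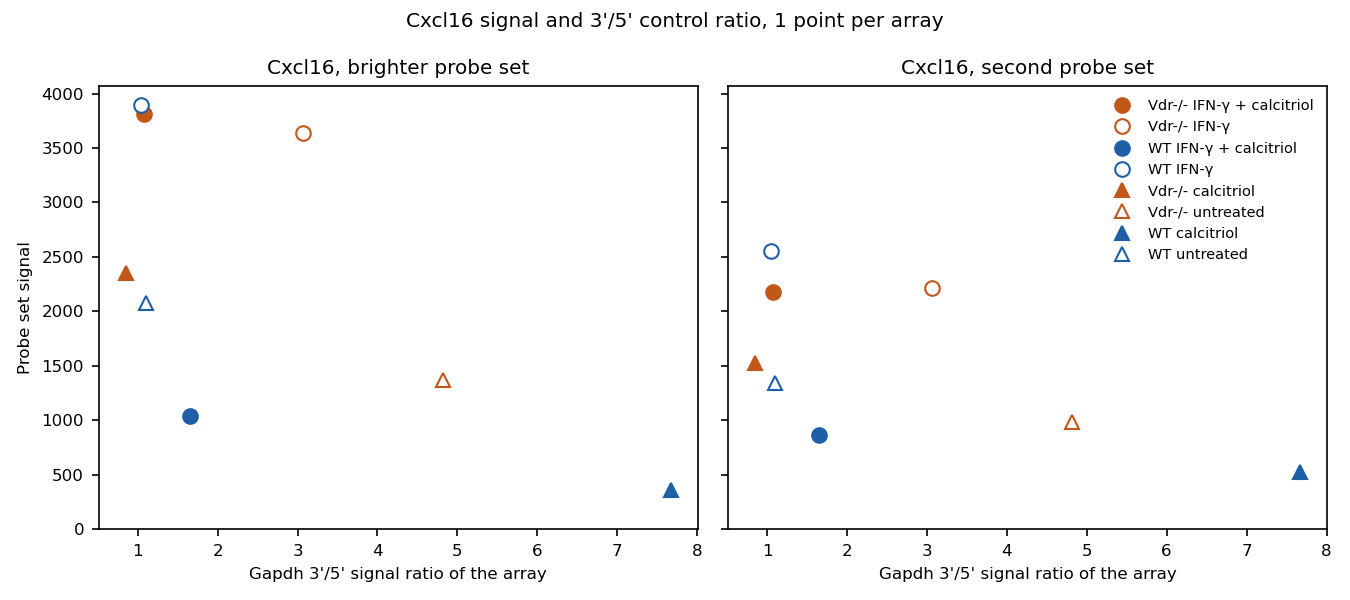
Signal of both Cxcl16 probe sets against the Gapdh 3′/5′ ratio, 1 point per array; circles have IFN-gamma, triangles do not, and filled symbols have calcitriol. The wild-type calcitriol array lies alone at a ratio of 7.67, and the wild-type array with IFN-gamma and calcitriol is low at a ratio of 1.65.

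Cxcl10 was low on the wild-type array with both agents. With calcitriol it gave 268, against 1209 with IFN-gamma alone, a 4.51-fold lower signal in 1 pair, whereas Vdr-/- cells gave 1279 with both agents and 1171 with IFN-gamma alone. Without IFN-gamma the wild-type order was opposite, with 63.7 with calcitriol and 27.4 untreated, and the mean change over both pairs was -0.48 (SE 0.614, limma adjusted p = 0.82). A single array has no error of its own. Cxcl10 and Cxcl16 were 4.36-fold and 3.51-fold below the nearest of the other 3 IFN-gamma arrays there, and 5.04% of probe sets were at least 2-fold below. The difference in IFN-gamma response of Cxcl10, Vdr-/- minus wild type, was 2.14 (SE 0.868, limma adjusted p = 0.996). No probe set was called for a difference of IFN-gamma effects (0%, with 635 at an unadjusted limma p under 0.05).

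On the wild-type calcitriol array, Cxcl16, Cxcl2 and Cxcl14 were 3.81-fold, at least 3.61-fold and 2.03-fold below the nearest of the other 3 arrays without IFN-gamma. At least 2-fold below was the place of 6.68% of all probe sets on that array. Cxcl2 changed by -0.29 with calcitriol in wild type (SE 0.993, limma adjusted p = 0.946), since the pair with IFN-gamma went the other way. The brighter Cxcl14 probe set gave 38.4 with IFN-gamma and calcitriol, against 118 with IFN-gamma, and 42.2 with calcitriol, against 85.5 untreated. Both pairs were lower, but the mean change of -1.32 had a wide error (SE 0.746, limma adjusted p = 0.568), and the second probe set changed by -0.55 (limma adjusted p = 0.832).

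Ccl5 set the Vdr-/- calcitriol array apart. It gave 2459 there, 4.40-fold above the nearest of the other 3 arrays without IFN-gamma, a place held by 2.4% of probe sets at 2-fold or more. Against the array labelled Vdr-/- untreated, at 235, it was 10.5-fold higher, whereas with IFN-gamma the Vdr-/- values were 3952 with calcitriol and 3963 without it. The mean change in Vdr-/- was 1.69 (SE 0.469, limma adjusted p = 0.2), and no member was called, against 0.194% of probe sets. The difference from wild type was 2.09 (SE 0.664, limma adjusted p = 0.138). With exchanged labels of the untreated arrays the Vdr-/- change was 1.07, and it was 0.50 when the arrays of highest Gapdh ratio were omitted and the fit was additive. T and NK cells are rich in Ccl5, and the summed signal of their 8 measured markers was 154 on the Vdr-/- calcitriol array, against 159.5 to 405 on the other 3 arrays without IFN-gamma. Of these markers 4 were below the median signal on all arrays, and the part of such cells in the Ccl5 signal was not tested.

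Calcitriol left the other members uncalled. Cxcl9 with IFN-gamma gave 4423 with calcitriol and 4311 without it in Vdr-/- cells, and 3527 with calcitriol and 5633 without it in wild-type cells. The wild-type change was -0.69 (SE 0.395, limma adjusted p = 0.572). Pf4 was higher with calcitriol in 4 of 4 pairs, by 0.13 to 0.49 on the log2 scale, and passed in neither genotype, with 0.44 in Vdr-/- (limma adjusted p = 0.941) and 0.25 in wild type (limma adjusted p = 0.88). With exchanged labels of the untreated arrays, the wild-type pair without IFN-gamma would be 228 with calcitriol against 359, a lower signal.

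**Figure D5:**
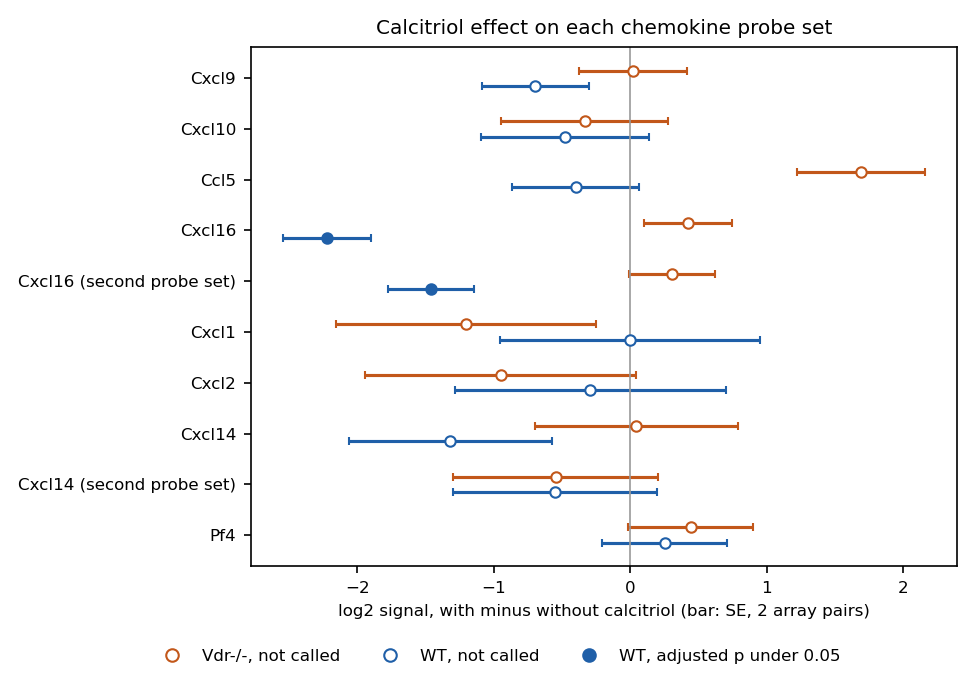
Change with calcitriol of each chemokine probe set in Vdr-/- (orange) and wild type (blue), over 2 array pairs each, on the log2 scale. Bars are the limma SE, whose spread comes from both genotypes and is drawn towards that of probe sets with similar signal. The Cxcl16 probe sets in wild type, at -2.22 and -1.46, are the filled points, and Ccl5 in Vdr-/- stands at 1.69 without passing.

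No member was called for genotype over the 4 treatments, and no probe set was (0%, with 611 at an unadjusted limma p under 0.05). Cxcl16 had the largest mean difference of the members, 0.97, Vdr-/- minus wild type (SE 0.409, limma adjusted p = 0.999). It was 3.69-fold and 6.56-fold higher in Vdr-/- in the pairs with calcitriol, and 1.07-fold and 1.52-fold lower in the pairs without it. Pf4 was higher in Vdr-/- in 4 of 4 pairs, by 0.34 to 1.06 on the log2 scale, and its mean difference of 0.66 did not pass (SE 0.371, limma adjusted p = 0.999). With exchanged labels the untreated Pf4 pair would be 208 in Vdr-/- against 359 in wild type. The median difference was 0.55 over the members and -0.03 over all probe sets. This median lies between Ccl5 at 0.49 and Cxcl1 at 0.60. The Cxcl1 value is set by its 1 array above the floor, labelled Vdr-/- untreated, and was -0.60 with exchanged labels of the untreated arrays.

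The genes with the most similar profiles were found by Pearson's r of the floored log2 signal over the 8 arrays, among 10338 singly named genes. They are descriptions in which the split by IFN-gamma weighs heavily. For Cxcl9 they were Gbp2b (r = 0.996), Gbp6 (r = 0.996) and Acod1 (r = 0.993). For Cxcl10 they were Zyx (r = 0.970), Slco3a1 (r = 0.968) and Naaa (r = 0.966). Ccl5 was closest to Mndal (r = 0.982), Gatm (r = 0.977) and Ifit2 (r = 0.976), and Cxcl16 to Pstpip1 (r = 0.988), Rbck1 (r = 0.985) and Fam3c (r = 0.979). The 4 members thus had no closest gene in common.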

How the data were processed

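Total RNA was measured on 8 one-colour arrays. The deposited values are linear intensity signals per probe set, and the values show a common scaling by the authors, since the 2% trimmed mean was 150.07 to 150.08 on every array. The sources used here name no software, scaling method or detection calls. Of 22690 probe sets, 64 controls were set aside. The 25th percentile of all signals (15.5) served as a floor before log2 was taken. A probe set was tested if at least 1 array reached the median of all signals (59.1), as 18058 did. The platform annotation gives 1 gene for 20380 probe sets, several for 691 and none for 1555, and the last kinds stayed in the tests unnamed. Symbols follow that annotation.

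Tests used limma 3.58.1 in R 4.3.3 (lmFit, eBayes with an intensity trend, two-sided) and were checked on simulated data. P-values were adjusted by Benjamini-Hochberg across the whole table, with a threshold of 0.05. IFN-gamma and genotype effects each used 4 pairs of arrays as blocks, which leaves 3 residual degrees of freedom. Calcitriol effects within a genotype and the differences between genotypes came from 1 nested fit with 2 residual degrees of freedom, where treatments that interact widen the spread. With 1 array per group, the number of arrays limits the precision. Motifs were searched with Python 3.11.15 and figures drawn with matplotlib 3.10.9.

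The members, the gene lists and the tests were chosen with earlier results of these data known. All members are named, with the called genes or the gene of lowest adjusted p in each of the 5 pathway lists and the 3 most similar genes of 4 members. Cxcl11, Cxcr3, Adam10 and the named cell markers were picked after their values were seen. Alternatives were quantile normalization, other filters and floors, no trend, averaged probe sets, exchanged labels of the untreated arrays, additive fits, left-out pairs and the omission of 2 arrays.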

Additional observations from a re-analysis of the deposited data

Results flagged for a closer look

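The calcitriol change of Cxcl16 differed between the genotypes by a test of the difference itself. Vdr-/- minus wild type, the difference was 2.65 on the log2 scale (SE 0.458, limma adjusted p = 0.00302), with 0.43 in Vdr-/- and -2.22 in wild type. It rests in part on the array labelled Vdr-/- untreated, whose label its Vdr signal goes against, and on the wild-type calcitriol array, whose Gapdh ratio was 7.67. No group had enough arrays for a search for outlying samples.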

How the results depend on the processing

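Of the 8 members, 5 were called for IFN-gamma. The count was 1 without the filter on dim probe sets and 1 without the intensity trend (Cxcl9 in both), 2 without the arrays of highest Gapdh ratio in an additive fit (the additive fit alone gave 4), and 1 to 4 when each pair was left out in turn. Over all probe sets these settings gave 80, 70, 53 and 99 to 420 calls, against 619, and averaged probe sets gave 372 and the additive fit 394. Cxcl9 was called in 14 of 14 alternatives, Cxcl10 in 11, Ccl5 in 8, Cxcl16 in 7 and Pf4 in 7. For calcitriol in wild type the count of 1 became 0 without the filter, with a stricter filter, without the trend, with averaged probe sets and, as an alternative chosen after seeing the data, without the arrays of highest Gapdh ratio in an additive fit, and each gave 0 calls over all probe sets, against 104. It stayed at 1 with the other settings, with 58 calls after quantile normalization, 5 with the lower floor and 20 with exchanged labels. For the difference of calcitriol effects the count of 1 became 0 without the filter, with the stricter filter, without the trend, with exchanged labels and without those arrays (added likewise), each with 0 calls in all against 271, while the lower floor gave 100 and averaged probe sets 65. For calcitriol in Vdr-/- cells there were 35 calls in all, 0 without the filter, with the stricter filter, without the trend, with exchanged labels and without those arrays, 1 with the lower floor, 7 with averaged probe sets, 18 after quantile normalization and 58 with the higher floor, and no member was called. Exchanged labels gave 109 calls for the difference of IFN-gamma effects and 7 for genotype, against 0, with no member among them. The causes were not tested. No called change reversed. The floor leaves Cxcl1 and the low end of Cxcl9, Cxcl10 and Cxcl2 without order.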
